A study of Mus musculus with 96 samples.

Results

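The genes of the mouse proteasome subunits were described across single embryonic stem cells (ES cells) and single embryonic fibroblasts (MEFs). Members were the rows of the expression table whose symbol is Psm followed by the letter a, b, c, d or e and a number, which gave 43 of 21711 gene rows. One 96-well plate was measured by single-cell tagged reverse transcription (STRT), which marks the cDNA of each well with a barcode and reads the 5′ end of the transcript with its strand. It held 48 wells of ES cells of the R1 line, an established mouse ES cell line, 44 wells of MEFs and 4 negative control wells. MEFs were grown in DMEM with 10% serum and 0.05 mM 2-mercaptoethanol, the ES cells under conditions described elsewhere, and strain, age and passage are not given in the sources used here. The labels name R1 as the source line of the MEF wells as well, against their cell type label, and the cell type label decided the group. Wells with at least 10000 gene reads were kept, which left 45 ES cells (replicates 32, 44 and 46 were dropped) and all 44 MEFs.

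The proteasome is the main protease of the cytosol and nucleus for proteins tagged with ubiquitin. Its barrel, the 20S core, stacks outer rings of alpha subunits, which gate the entry, on inner rings of beta subunits, some of which carry the proteolytic sites. The 19S regulatory particle binds the ubiquitin chain, removes it and feeds the unfolded substrate into the barrel through a ring of ATPases, and alternative activators and immunoproteasome subunits can replace parts of this assembly.

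Each cell type came from 1 culture as far as the labels say, so cells were not treated as replicates and no test between the types was made. ES cells filled plate columns 1 to 6 and MEFs columns 7 to 12, so that plate side and cell type cannot be told apart. Both types were present in all 8 plate rows, and the SD over plate rows is given as the spread. ES cells had a median of 161206 gene reads (lowest 13576, highest 703423) and MEFs of 851801 (lowest 63938, highest 1883709). The 6 ES cell markers summed to 0.0221% to 2.01% of gene reads in ES cells and to at most 0.0184% in MEFs, where Nanog was at 0, and the 6 fibroblast markers to 0.0212% to 2.54% in ES cells and 0.591% to 6.44% in MEFs. Of 6 macrophage and blood markers, Cd68, Hbb-b1 and Cd74 were at 0 in both types, Lyz2 had 74 reads in 2 MEFs, Csf1r 23 in 1 MEF and Ptprc 2 reads in 1 ES cell and 1 in 1 MEF. Of 4 endothelial markers, Pecam1 and Cdh5 were at 0 in both types, Kdr had 200 reads in 4 of 44 MEFs, and Flt1 had 545 reads in 12 of 44 MEFs and 9 reads in 3 ES cells. ES cells 4, 7, 8 and 30 lay nearer to the mean MEF profile than to their own, and ES cells 2, 7, 8 and 30 had more spike-in than gene reads. Leaving out all 5 of these ES cells gave the same counts of members higher in either type as reported here, with a family median log2 ratio of 1.09.

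Promoter sequence was available for 36 of the 43 members in the RefSeq table of build GRCm38.p6, as windows of 250 bases before to 50 bases after the annotated start. The 5 windows below were chosen to set members that were higher in ES cells (Psma3, Psma5, Psmb6, Psmd12) beside a lid member that was not (Psmd8), and to show the different motif matches found in the family. Capitals mark matches, on either strand, to the antioxidant response element core TGACNNNGC, the NF-Y box CCAAT, the ETS core CCGGAAG and the GC box GGGCGG. Each is written 5′ to 3′ on the gene's own strand. The windows lie at chr12:70974373-70974672, plus strand (Psma3), chr3:108256676-108256975, plus strand (Psma5), chr11:70525107-70525406, plus strand (Psmb6), chr7:29180624-29180923, minus strand (Psmd8), chr11:107479278-107479577, plus strand (Psmd12).
Psma3: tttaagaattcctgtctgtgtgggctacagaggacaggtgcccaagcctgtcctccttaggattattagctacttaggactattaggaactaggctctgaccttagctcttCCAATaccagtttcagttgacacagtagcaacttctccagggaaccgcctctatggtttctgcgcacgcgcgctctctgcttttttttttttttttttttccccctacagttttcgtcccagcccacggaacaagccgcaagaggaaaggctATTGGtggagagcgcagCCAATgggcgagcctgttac
Psma5: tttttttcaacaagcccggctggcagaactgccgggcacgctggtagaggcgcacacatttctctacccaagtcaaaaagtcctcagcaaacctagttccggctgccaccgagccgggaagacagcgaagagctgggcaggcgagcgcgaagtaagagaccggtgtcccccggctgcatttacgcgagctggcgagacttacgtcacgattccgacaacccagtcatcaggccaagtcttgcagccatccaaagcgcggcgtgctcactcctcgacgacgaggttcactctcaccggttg
Psmb6: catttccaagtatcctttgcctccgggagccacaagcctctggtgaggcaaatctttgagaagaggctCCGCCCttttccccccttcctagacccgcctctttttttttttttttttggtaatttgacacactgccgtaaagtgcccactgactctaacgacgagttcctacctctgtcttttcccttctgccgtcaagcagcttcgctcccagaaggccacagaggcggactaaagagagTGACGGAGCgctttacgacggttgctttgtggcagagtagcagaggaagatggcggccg
Psmd8: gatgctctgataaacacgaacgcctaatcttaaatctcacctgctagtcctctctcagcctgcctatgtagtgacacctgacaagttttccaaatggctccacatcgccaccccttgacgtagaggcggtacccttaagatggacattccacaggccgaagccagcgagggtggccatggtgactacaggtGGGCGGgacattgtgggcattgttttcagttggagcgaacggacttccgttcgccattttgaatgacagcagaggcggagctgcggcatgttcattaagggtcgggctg
Psmd12: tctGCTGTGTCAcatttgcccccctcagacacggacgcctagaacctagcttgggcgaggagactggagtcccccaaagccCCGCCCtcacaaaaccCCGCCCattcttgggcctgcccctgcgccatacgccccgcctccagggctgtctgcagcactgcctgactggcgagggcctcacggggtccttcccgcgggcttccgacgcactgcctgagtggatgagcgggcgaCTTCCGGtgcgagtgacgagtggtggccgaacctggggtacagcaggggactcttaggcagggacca

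The Psma3 window held 3 matches to CCAAT and the Psma5 window none to any of the 4 motifs. In the Psmb6 window 1 antioxidant response element core and 1 GC box were found, in the Psmd8 window 1 GC box, and in the Psmd12 window 1 antioxidant response element core, 1 ETS core and 2 GC boxes. None of the 4 strings contains another. Over the family, the ETS core occurred in 11 of 36 member windows (30.6%) beside 9.12% of all 27025 windows of the same length, and the GC box in 22 (61.1%) beside 35.9%. The antioxidant response element core, 6 of 36 (16.7%), was near the share in all windows, 12.5%, and so was the NF-Y box, 14 (38.9%) beside 37.9%. ETS core matches were in none of 15 windows of 20S subunit genes, in 9 of 14 windows of 19S base and lid genes (Psmc1, Psmc2, Psmc6, Psmd2, Psmd4, Psmd6, Psmd11, Psmd12 and Psmd13) and in 2 of 7 of the other members (Psme3 and Psme4). Among the members searched, 6 of the 17 higher in ES cells and 5 of the other 18 measured ones held an ETS core. A match is a description of the letters in the window, not a binding site, and a window without one lacks only these letters.

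Proteasome transcripts made up a smaller part of gene reads in the median ES cell than in the median MEF. The summed share of the 43 members was 0.0600% of gene reads in the lowest ES cell (ES 39), 0.274% in the median ES cell and 0.715% in the highest (ES 36). In MEFs it was 0.240% in the lowest cell (MEF 80), 0.398% in the median cell and 0.823% in the highest (MEF 81). The ranges overlapped in part, with 20 of 45 ES cells below the lowest MEF, 32 below the MEF median and 0 above the highest MEF. The ES cell median was lower in 7 of 8 plate rows, the exception being row D, and the share varied more between ES cells (CV 51.1%) than between MEFs (CV 33.3%). After thinning each cell to 20000 reads the medians were 0.303% in 42 ES cells and 0.365% in 44 MEFs. The CVs were then closer, 50.6% in ES cells and 38.9% in MEFs.

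**Figure D1:**
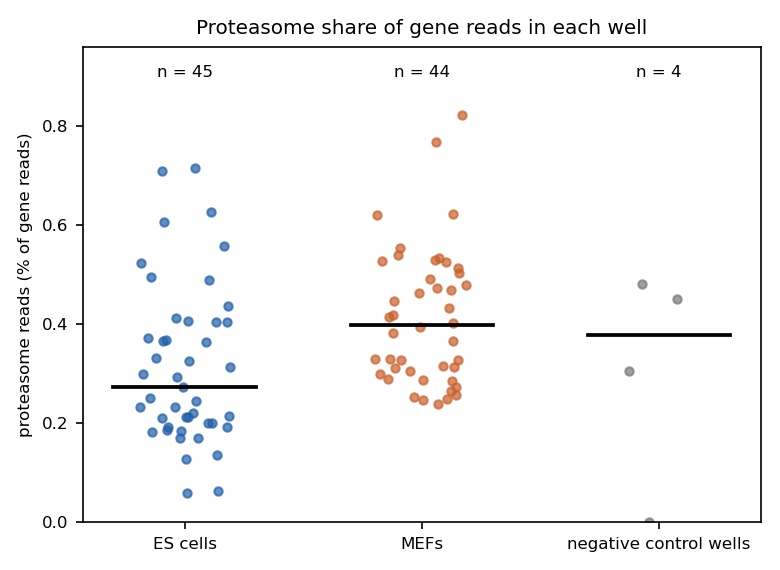
Summed reads of the 43 proteasome genes as percent of gene reads (vertical axis) in each of 45 ES cells, 44 MEFs and 4 negative control wells; points are wells and bars are medians. The ES cell median, 0.274%, lies below the MEF median, 0.398%, and the points of both types overlap.

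The total that this share is taken from differed in make-up. In the median ES cell 46.2% of gene reads belonged to ribosomal protein genes, in the median MEF 14.2%, and with them left out of the total the order turned, to 0.483% in the median ES cell and 0.440% in the median MEF. Per 100 spike-in reads, the median ES cell held 1.61 proteasome reads and the median MEF 54.6. The spike-in measure holds the RNA per cell and its capture together, which cannot be told apart here. In the negative control wells, which had 236 to 4662 gene reads each, 52 of 12527 gene reads were from 13 of the 43 members, a median share of 0.378% (0% to 0.482%). These wells lie in plate column 12, on the MEF side, and their median share was inside the range of both cell types; well 96, with no proteasome read, lay below both. The part of carried-over RNA in the cell wells was not tested beyond subtracting the mean negative control count of every gene, which left all counts of members within 1.5 times of those given.

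Relative to the median gene, most proteasome genes were higher in ES cells. Reads were pooled by cell type and scaled to total gene reads (CPM), and the log2 ratio of ES cells over MEFs was taken relative to its median over the 11054 genes with at least 100 reads, which was −1.54 in plain CPM, with an SD over plate rows of 0.39. This is the relative log2 ratio below, and a member counts as higher in 1 type when it is at least 2-fold (a relative log2 ratio of 1 or more either way). Of 42 members measured with at least 20 reads, 22 were higher in ES cells, where 33.8% of all 12818 measured genes were. In MEFs 2 members were higher (Psmb8 and Psmd9), where 32.5% of all measured genes were. Of the 41 with a read in both types, 17 were within 2-fold and 34 lay above 0. Psmb9 had no ES cell read, and its 0.09 is an upper bound set by a floor of 3 reads. The median member stood at 1.06 (SD over plate rows 0.51, above 0 in 7 of 8 rows) and the median of all measured genes at 0.06. The unmeasured member was Psmb11, the thymus-specific catalytic subunit, with 1 read in all.

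The direction depended on the scale. In plain CPM, the summed family had 3489 CPM in ES cells and 4008 CPM in MEFs, the median member stood at −0.48, and 1 member passed 2-fold towards ES cells and 10 towards MEFs, beside 15.4% and 58.5% of all measured genes. With 10 CPM added to both types before the ratio, 9 members passed 2-fold towards ES cells, beside 18.6% of all genes, and the median was 0.35. The relative ratio is used in what follows. Single members were noisy: for 24 of 41 members with an SD, the SD over plate rows was larger than the ratio itself, and 6 members lay above 0 in all 8 rows. In ES cells, 17 of 41 detected members had at least 25% of their reads from 1 cell, against 6 of 43 in MEFs. ES 47, which had 607901 gene reads, was the cell with most reads of 11 members, and MEF 81 of 10. Without ES 47 and MEF 81 the median was 1.03 and the counts were again 22 and 2, although Psmd4 (0.67) and Psme4 (0.98) dropped under 2-fold and Psmb5 (1.13) and Psme1 (1.02) passed it.

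**Figure D2:**
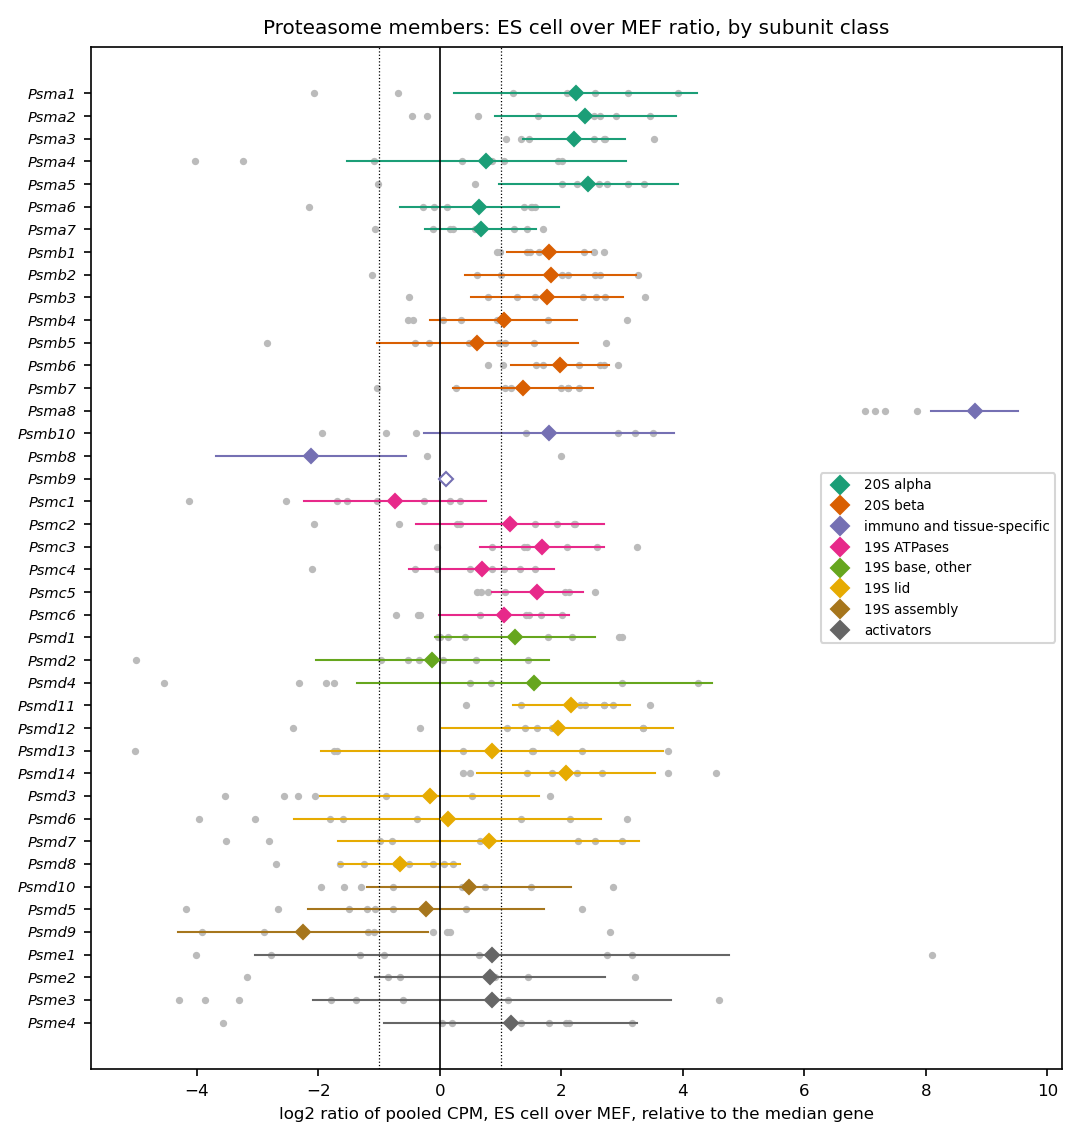
Relative log2 ratio of ES cells over MEFs (horizontal axis) for the 42 measured members, by subunit class (colours); diamonds are pooled values, bars are 1 SD over plate rows, grey points are single plate rows, dotted lines mark 2-fold, and the open diamond (Psmb9) is a bound set with a floor of 3 reads. The 14 constitutive 20S core genes all lie to the right of 0, from 0.62 to 2.44.

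In pooled reads, the constitutive 20S core stood above the 19S particle. Of its 14 constitutive genes, 10 passed 2-fold towards ES cells and none towards MEFs, beside 33.8% and 32.5% of all measured genes. The median of these 14 genes was 1.78 (SD 0.84, above 0 in 7 of 8 plate rows). Their summed level was 1928 CPM in ES cells and 1700 CPM in MEFs. In the alpha ring, which forms the gate, 4 of 7 genes were higher (Psma1, Psma2, Psma3 and Psma5), with a median of 2.21 (SD 1.21). Psma4, Psma6 and Psma7 were within 2-fold, at 0.77, 0.65 and 0.67. In the beta ring, 6 of 7 were higher, all but Psmb5, with a median of 1.76 (SD 0.50, above 0 in 8 of 8 rows). Cells thinned to 20000 reads gave a core median of 0.86, no higher than the family median of 0.86 in the same reads, while the base and lid stood at 0.61.

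Psma5 (chr3:108256926-108279974, plus strand, GENCODE annotation of GRCm38) had the largest ratio of the alpha ring. It was detected in 29 of 45 ES cells, where it ranged from 0 through a median of 36.3 to 1352 CPM, and in 38 of 44 MEFs, where it ranged from 0 through 75.2 to 286 CPM. Pooled, it had 170 CPM (95% Poisson interval 162 to 179) in ES cells and 90.9 CPM (87.8 to 94.1) in MEFs, a relative log2 ratio of 2.44 (SD 1.47, above 0 in 7 of 8 rows). The median ES cell was thus below the median MEF, and the higher pooled value came from the upper tail of ES cells. All intervals here, Poisson and binomial, cover counting error only: reads carried no molecular identifiers, so copies of 1 molecule, and reads that come largely from 1 cell, are not independent.

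Psma2 (chr13:14613240-14674236, plus strand) behaved alike. It was found in 30 of 45 ES cells, from 0 through a median of 68.5 to 1966 CPM, and in 42 of 44 MEFs, from 0 through 134 to 1204 CPM. The pooled levels were 412 CPM in ES cells, with 27.7% of the reads in ES 47, and 229 CPM in MEFs, a relative ratio of 2.39 (SD 1.49, above 0 in 6 of 8 rows). Plate rows B and H were below 0 for this gene, at −0.21 and −0.46.

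Psma3 (chr12:70974621-70996347, plus strand), whose window with 3 NF-Y boxes is printed above, was the steadiest of the alpha ring. In 37 of 45 ES cells it was detected, from 0 through a median of 161 to 617 CPM, and in 41 of 44 MEFs, from 0 through 105 to 850 CPM. Here the median cell as well as the pooled level (217 and 137 CPM) was higher in ES cells, with a relative ratio of 2.21 (SD 0.84, above 0 in all 8 rows). Psma1 (chr7:114264606-114276118, minus strand) reached 2.23 with a wide spread (SD 2.00, above 0 in 6 of 8 rows), from 86 CPM in ES cells and 53.2 CPM in MEFs, and was detected in 22 of 45 and 36 of 44 cells.

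The 3 constitutive catalytic subunits differed in how firmly they stood. Psmb6, the caspase-like subunit (chr11:70525367-70527858, plus strand), had a median of 36.3 CPM in ES cells (0 to 385) and 39.95 CPM in MEFs (0 to 439). Its pooled levels of 87 and 64.2 CPM gave a relative ratio of 1.98 (SD 0.80, above 0 in 8 of 8 rows), and 0.86 after thinning. Psmb7, the trypsin-like subunit (chr2:38588036-38644087, minus strand), was detected in 19 of 45 ES cells (0 to 449 CPM, median 0) and 43 of 44 MEFs (0 to 361 CPM, median 88.5). It had a ratio of 1.37 (SD 1.16), which was 0.18 after thinning. Psmb5, the chymotrypsin-like subunit (chr14:54614119-54618022, minus strand), ranged up to 444 CPM in ES cells (median 3.38) and 773 CPM in MEFs (median 54.8). At 0.62 (SD 1.65) it was within 2-fold, and MEF 81 held 28.6% of its MEF reads. Psmb5 was also the member with the fewest uniquely mapped reads, all 42 others having at least 99% unique reads. Of the other beta subunits, Psmb1 was the most widely detected member in ES cells, in 40 of 45, with 313 CPM in ES cells and 263 CPM in MEFs and a ratio of 1.79 (SD 0.69, above 0 in 8 of 8 rows).

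Immunoproteasome subunits, which replace the constitutive catalytic subunits in cells exposed to interferon, were found in few cells, except for Psmb10. Psmb9, the counterpart of Psmb6 (chr17:34181987-34187764, minus strand), had 0 reads in ES cells beside 759 of Psmb6, where a floor of 3 reads would be 0.395% of the pair and the exact upper limit (Clopper-Pearson, 95%) is 0.485%. All its 33 MEF reads came from 1 cell, MEF 83, and made 1.44% of the pair. Psmb8, the counterpart of Psmb5 (chr17:34197721-34201454, plus strand), had 1 read in ES cells and 51 in MEFs, the latter from MEF 49 and MEF 89 alone. That is 0.260% (0.00658% to 1.44%, exact Clopper-Pearson interval at 95%) and 1.71% (1.27% to 2.24%) of the pair. Its place among the members higher in MEFs, with a relative ratio of −2.12 (SD 1.57), rests on these cells. With the top cell of each type left out, no ES cell read remained, and the value of 1.66 is an upper bound set by the floor of 3 reads. With 10 CPM added it was 0.50, near the 0.67 of the almost unread Psmb11.

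Psmb10, the counterpart of Psmb7 (chr8:105935735-105938444, minus strand), was present in both types. It was detected in 9 of 45 ES cells, up to 173 CPM, and in 20 of 44 MEFs, up to 110 CPM, with a median cell at 0 in either. It made 21.4% (18.7% to 24.3%) of the Psmb10 and Psmb7 reads in ES cells and 16.9% (15.7% to 18.1%) in MEFs, or 17.2% and 13.4% with reads divided by transcript length. Reads came from the 5′ end of the transcript, so their number need not grow with length and the division may not be a correction. The relative ratio of Psmb10 was 1.8 (SD 2.05, above 0 in 5 of 8 rows), with 45.2% of the ES cell reads in ES 47, and without ES 47 and MEF 81 it was 1.11. Plate rows F and H held no ES cell read of Psmb10. Their values, −0.89 and 3.51, are upper bounds set by the floor of 3 reads. The SD and the row count include these bounds. In the cells with a read the medians were close, 36.1 CPM in ES cells and 32.1 CPM in MEFs.

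Psma8, an alpha subunit known from male germ cells where it takes the place of Psma7, had the largest difference of all members. It had 343 reads in 9 of 45 ES cells (ES 1, 9, 10, 14, 19, 27, 33, 34 and 47) and 9 reads in 2 of 44 MEFs. In the 9 ES cells the levels ranged from 13.9 CPM (ES 27) to 343 CPM (ES 14), with a median of 93.6 CPM, and in the 2 MEFs they were 2.38 CPM (MEF 54) and 7.06 CPM (MEF 89). The other 36 ES cells and 42 MEFs were at 0, and so were the negative control wells. Pooled, 39.3 CPM (35.3 to 43.7) in ES cells stood against 0.256 CPM (0.117 to 0.486) in MEFs, a relative ratio of 8.80 that rests on 9 MEF reads. It was 8.10 without ES 47 and MEF 81, 2.94 with 10 CPM added, and 3.64 after thinning, where no MEF read was left and the value is a bound set by the floor. Of the reads of Psma8 and Psma7 together, Psma8 made 28.1% (25.6% to 30.7%) in ES cells and 0.139% (0.0635% to 0.263%) in MEFs. With reads divided by transcript length, under the limit given for Psmb10, the ES cell share was 16.9%. Of the 9 ES cells with Psma8 reads, 8 had Psma7 reads as well. Thinned to 20000 reads, 6 ES cells and 0 MEFs still had a read of Psma8.

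**Figure D3:**
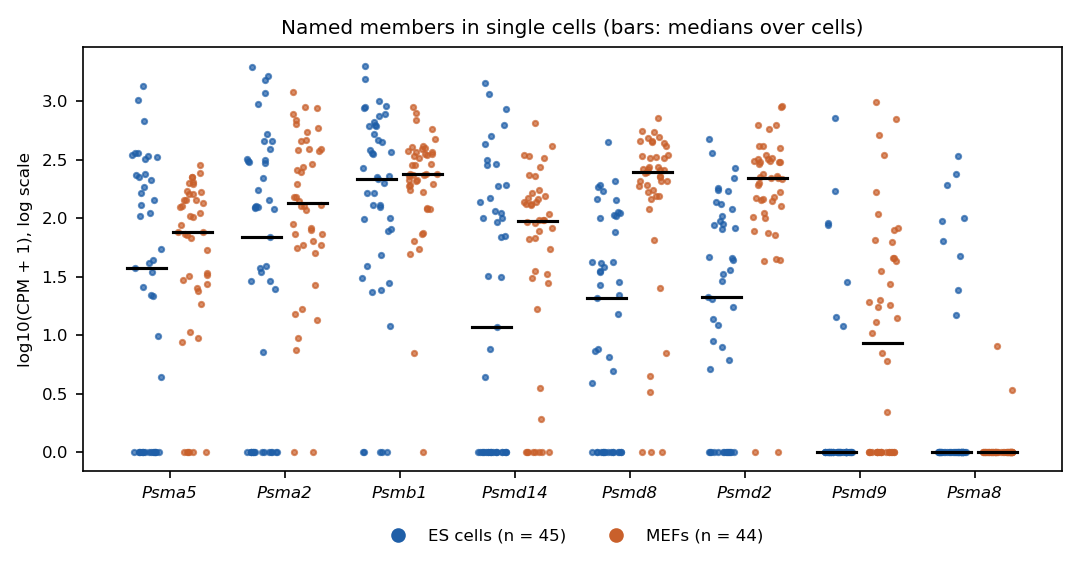
Level of 8 members in each cell, as log10 of CPM + 1 (vertical axis), in 45 ES cells (blue) and 44 MEFs (orange); points are cells and bars are medians. Psma5 and Psma2 reach higher in ES cells while their ES cell medians, 36.3 and 68.5 CPM, are below the MEF medians, 75.2 and 134 CPM; Psma8 is above 0 in 9 ES cells and 2 MEFs.

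The 19S base and lid followed the core at a lower ratio. Of 17 genes, 9 passed 2-fold towards ES cells and none towards MEFs, beside 33.8% and 32.5% of all measured genes. The median of these 17 genes was 1.06 (SD 0.46, range −0.74 to 2.16). Their summed level was lower in ES cells, 1264 CPM, than in MEFs, 1838 CPM. Among the 6 ATPases, which unfold the substrate, Psmc2, Psmc3, Psmc5 and Psmc6 were higher, with a class median of 1.10 (SD 0.54). Psmc3 was the most widely detected of them in ES cells, in 36 of 45, at 205 CPM against 186 CPM in MEFs and a ratio of 1.68 (SD 1.02). Psmc5 stood at 1.60 and was above 0 in all 8 rows (SD 0.75). Psmc1 (chr12:100110154-100123405, plus strand) was the lowest of the base, at −0.74 (SD 1.5, above 0 in 2 of 8 rows). It ranged from 0 through a median of 0 to 222 CPM in ES cells, where 11 of 45 cells had a read, and from 0 through 36 to 344 CPM in MEFs, where 33 of 44 did.

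The non-ATPase members of the base, Psmd1, Psmd2 and Psmd4, were split. Psmd2 (chr16:20651652-20663414, plus strand), a scaffold that docks ubiquitin shuttles, ranged from 0 through a median of 20.1 to 477 CPM in ES cells and from 0 through 218 to 907 CPM in MEFs. Its pooled levels of 83.9 and 267 CPM gave a ratio of −0.13 (SD 1.92), close to the median gene. Psmd4 (chr3:95032694-95042614, minus strand), a ubiquitin receptor, ranged from 0 through a median of 0 to 962 CPM in ES cells and from 0 through 77.6 to 517 CPM in MEFs. Its ratio of 1.56 rested on few cells: ES 47 held 50.8% of its ES cell reads, the SD over rows was 2.93, 4 of 8 rows were above 0, and without ES 47 and MEF 81 it was 0.67. Psmd1 (chr1:86064387-86139151, plus strand), the other large scaffold, stood at 1.24 (SD 1.32).

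In the lid, which carries the deubiquitinase, 3 of 8 genes were higher in ES cells (Psmd11, Psmd12 and Psmd14), and the median was 0.83 (SD 0.94). That count was near the share of all measured genes higher in ES cells, 33.8%. Psmd14, the deubiquitinase (chr2:61711694-61800376, plus strand), ranged from 0 through a median of 10.7 to 1441 CPM in ES cells and from 0 through 93.5 to 653 CPM in MEFs. Pooled, it had 177 and 122 CPM, a ratio of 2.08 (SD 1.47) that was above 0 in all 8 rows. Psmd11 (chr11:80428615-80473248, plus strand), a structural subunit of the lid, ranged up to 1130 CPM in 20 of 45 ES cells and up to 444 CPM in 30 of 44 MEFs. Its ratio was 2.16 (SD 0.96), again above 0 in all 8 rows. Psmd12, whose window with the ETS core is printed above, stood at 1.94 (SD 1.90).

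Psmd8 (chr7:29174188-29180701, minus strand), the lid subunit that joins last, lay below the median gene by less than its spread over plate rows. It ranged from 0 through a median of 19.8 to 444 CPM in ES cells and from 0 through 245 to 719 CPM in MEFs, detected in 29 of 45 and 41 of 44 cells. Pooled, it had 58 CPM (53.1 to 63.3) in ES cells and 268 CPM (262 to 273) in MEFs. The relative ratio was −0.67 (SD 0.99, above 0 in 2 of 8 rows), within 2-fold, and −1.03 after thinning. Psmd3 and Psmd6 were near the median gene, at −0.17 (SD 1.8) and 0.13 (SD 2.52), and Psmd7 and Psmd13 at 0.80 and 0.86 with SDs of 2.48 and 2.81.

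Psmd5, Psmd9 and Psmd10 carry subunit-like symbols but are chaperones that assemble the base and leave the finished particle. None was higher in ES cells, where 33.8% of all measured genes were, and the median was −0.23 (SD 1.28). Psmd9 (chr5:123169413-123250131, plus strand) was detected in 7 of 45 ES cells, up to 718 CPM, and in 25 of 44 MEFs, from 0 through a median of 7.71 to 987 CPM. At 5.73 CPM (4.26 to 7.56) in ES cells and 79.2 CPM (76.3 to 82.2) in MEFs its relative ratio was −2.25 (SD 2.06, above 0 in 3 of 8 rows). Plate rows A, E and F held no ES cell read of Psmd9. Their values, −1.19, 0.11 and 2.81, are upper bounds set by the floor of 3 reads. The SD and the row count include these bounds. MEF 58 alone held 42.3% of the MEF reads, and with the top cell of each type left out the ratio was −1.57. With each cell weighted equally it was −0.28, where shallow ES cells count more. ES 28, with 26466 gene reads, had 718 CPM from 19 reads. In wells with at least 50000 reads the ratio was −3.08. Psmd5 (chr2:34849734-34874968, minus strand) stood at −0.23 (SD 1.94), from a median of 0 CPM in ES cells (0 to 444) and 33.2 CPM in MEFs (0 to 288), and was detected in 9 of 45 and 39 of 44 cells. After thinning it stood at −1.03. Psmd10, known as gankyrin, stood at 0.48 (SD 1.68).

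The 4 activators lay close together in pooled values and far apart in single cells. The class median was 0.86 (SD 1.41), and only Psme4 of these 4 passed 2-fold, towards ES cells, as 33.8% of all measured genes did. Psme1 (chr14:55578123-55581529, plus strand), which with Psme2 forms the interferon-induced activator, was detected in 6 of 45 ES cells, up to 342 CPM, and 23 of 44 MEFs, up to 513 CPM. ES 38 held 54.9% of its ES cell reads, and its ratio of 0.86 (SD 3.9) was −1.61 after thinning. Psme2 (chr14:55587441-55591113, minus strand) ranged up to 939 CPM in 17 of 45 ES cells and 592 CPM in 32 of 44 MEFs, with a ratio of 0.82 (SD 1.89). It also had the most negative control reads of all members, 14 of the 52.

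Psme3 (chr11:101316213-101323537, plus strand), the nuclear activator, depended most of the activators on 1 cell. ES 22, at 1236 CPM, held 81.4% of its ES cell reads, and it was detected in 8 of 45 ES cells and 33 of 44 MEFs (median 40.6, highest 395 CPM). The ratio of 0.86 (SD 2.95, above 0 in 2 of 8 rows) turned to −0.63 with the top cell of each type left out. Psme4 (chr11:30771726-30880361, plus strand), the large single-chain activator, ranged up to 676 CPM in 21 of 45 ES cells and, from 0 through a median of 77.7, up to 716 CPM in 36 of 44 MEFs. Its ratio was 1.17 (SD 2.08, above 0 in 7 of 8 rows).

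Within the family, the balance between core and regulatory particle differed between the types. The 14 constitutive core genes made 55.3% (54.7% to 55.8%) of 30424 proteasome reads in ES cells and 42.4% (42.2% to 42.7%) of 140898 in MEFs. The SDs over plate rows were 5.51 and 5.83 percentage points, and the ES cell share was higher in 8 of 8 rows. The 17 base and lid genes made 36.2% in ES cells and 45.9% in MEFs, with the ES cell share higher in 1 of 8 rows (SDs 6.10 and 3.13). This difference does not depend on the centring, since it compares members within each type. Thinned to 20000 reads per cell it was smaller, 54.2% against 46.3% for the core and 36.4% against 42.6% for the base and lid. Assembly chaperones made 0.825% in ES cells and 3.65% in MEFs (SDs 0.702 and 3.07), lower in ES cells in all 8 rows. Activators made 5.95% and 7.57% (SDs 4.19 and 2.29), which overlap.

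**Figure D4:**
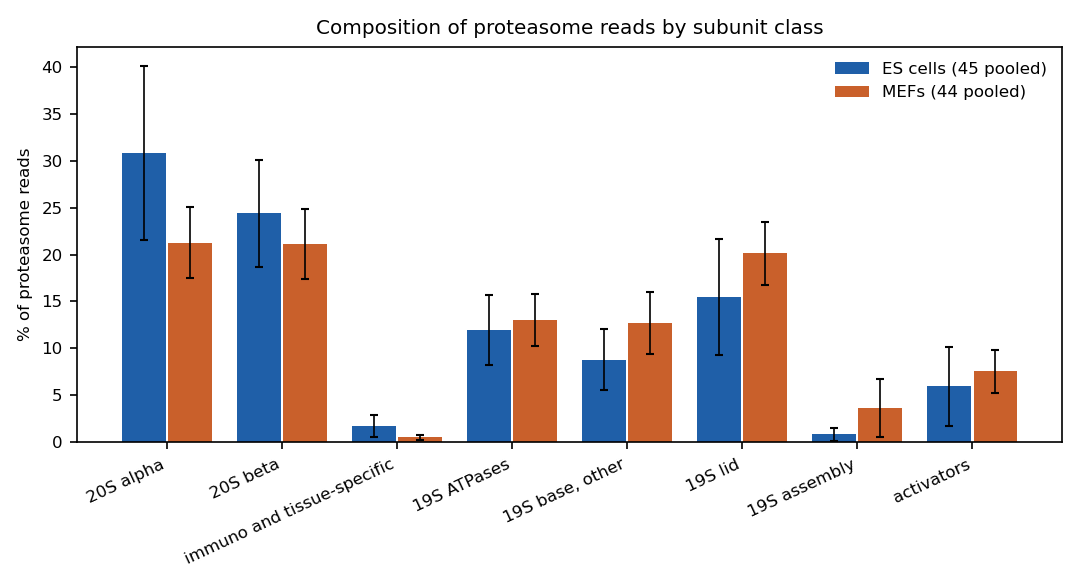
Percent of pooled proteasome reads (vertical axis) from each subunit class in 45 ES cells (blue) and 44 MEFs (orange); error bars are 1 SD over the 8 plate rows, with the lower bar cut at 0. Both 20S rings together make 55.3% in ES cells and 42.4% in MEFs, while the lid makes 15.5% and 20.1%.

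Single ES cells held reads of fewer proteasome genes. A median of 18 members had a read per ES cell (7 to 35) and of 33.5 per MEF (8 to 39), and 42 of 43 members were detected in a larger share of MEFs, Psma8 being the exception. The median member was found in 46.7% of ES cells and 81.8% of MEFs. Over all measured genes the medians were 13.3% and 38.6%, also lower in ES cells. Depth differed several-fold between the types, so each cell was thinned to 20000 gene reads, which left out 3 ES cells and 0 MEFs. The medians then were 14.5 members in 42 ES cells (4 to 30) and 22 in 44 MEFs (7 to 35), and 38 members were found in a larger share of MEFs and 3 in a larger share of ES cells. The same counts over all genes at equal reads are not given here, so these cannot be read as a trait of the family. The 20S core genes numbered 6.5 of 14 per thinned ES cell and 9 of 14 per thinned MEF, and the base and lid genes 6 and 10 of 17. The gap was smaller at equal reads. Ribosomal protein genes took the larger share of ES cell reads given above, and its part in this difference was not tested.

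**Figure D5:**
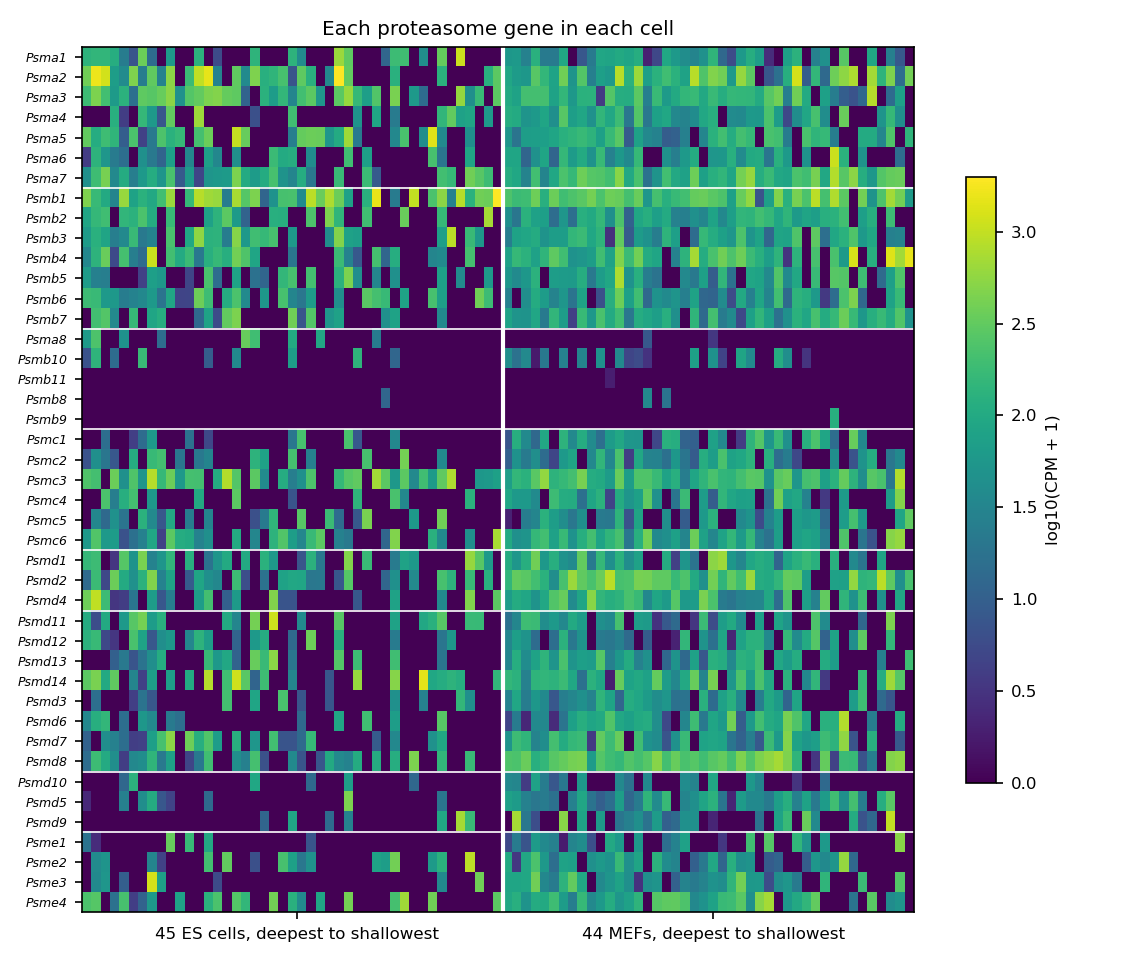
Level of each of the 43 members (rows, by class) in each cell (columns, deepest to shallowest within a type), as log10 of CPM + 1 (colour). Dark cells with no read are more common among the 45 ES cells, where a median of 18 members had a read, than among the 44 MEFs, where 33.5 did.

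Members varied together only weakly from cell to cell. Over 45 ES cells the share of gene reads from the core (median 0.138%, 0.00951% to 0.459%) and from the base and lid (median 0.101%, 0.0201% to 0.276%) had a Spearman rho of 0.22. Over 44 MEFs (medians 0.155% and 0.168%) it was 0.23. Among the 16 members with a read in at least 50% of ES cells the median rho over pairs was 0.17, and over pairs of all 1203 such genes 0.08. For 37 members in MEFs it was 0.11, and for all 5303 such genes 0.06. These values describe cells that share 1 plate and differ in depth. The family share had a rho with gene reads of 0.24 in ES cells and −0.15 in MEFs.

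Relative to the median gene, genes that assemble or attach to the proteasome but lie outside the symbol rule were also mostly higher in ES cells. Of 12 measured, 7 passed 2-fold towards ES cells (Psmg1, Psmg2, Psmg4, Psmf1, Adrm1, Usp14 and Uchl5) and 2 towards MEFs (Psmg3 and Ube3c). Of all measured genes, 33.8% and 32.5% did. The median of the list was 2.10 (SD 1.00). In plain CPM 2 passed towards ES cells and 4 towards MEFs, beside 15.4% and 58.5% of all measured genes. Usp14, a deubiquitinase that trims chains on the docked substrate, had 281 CPM in ES cells and 140 CPM in MEFs, a ratio of 2.54 (SD 1.82, above 0 in 7 of 8 rows). Psmg2, part of a chaperone pair for the alpha ring, had 41.1 and 21.7 CPM, a ratio of 2.46 (SD 1.06) above 0 in all 8 rows, and its partner Psmg1 stood at 2.53 (SD 3.50). For Psmf1, an inhibitor of the core, the ratio of 2.40 (SD 3.77) had 58.5% of the ES cell reads from 1 cell. Pomp, which matures the beta ring, was within 2-fold at 0.76 (SD 0.85).

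Genes that make and activate ubiquitin were described singly. Rps27a, which encodes ubiquitin fused to a ribosomal protein, stood at 1.44 (SD 0.45, above 0 in all 8 rows). Ubb, which encodes a chain of ubiquitin units, stood at 2.04 (SD 0.73, above 0 in all 8 rows), with 29.4% of its reads uniquely mapped. The E1 enzymes, which activate ubiquitin, were within 2-fold, Uba1 at 0.95 (SD 0.59, above 0 in all 8 rows) and Uba6 at 0.39 (SD 1.77). Shuttle factors and the p97 complex, which deliver substrates, had 4 of 10 higher in ES cells (Ubqln1, Ubqln4, Ddi2 and Nsfl1c) and none in MEFs. The former was near the 33.8% of all measured genes, and 32.5% of these were higher in MEFs. The class median was 0.57 (SD 0.46), above 0 in 2 of 8 plate rows. Nsfl1c stood at 2.15 (SD 1.73), Ubqln4 at 1.74 (SD 1.86), Vcp, the p97 ATPase, at −0.21 (SD 0.71) and Nploc4 at −0.45 (SD 2.39).

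Regulators of proteasome gene transcription differed in direction. Nfe2l1, the factor that raises proteasome genes when the proteasome is inhibited, stood at −0.34 (SD 1.07), from 59.5 CPM in ES cells and 220 CPM in MEFs. Nfe2l2 stood at 1.70 (SD 2.41), and Keap1, which targets it for degradation, at −1.34 (SD 2.53). Ngly1, an enzyme that activates Nfe2l1, stood at −4.26, with 2 reads over all ES cells. Irf1, which drives immunoproteasome genes, stood at 4.92 (SD 3.57), with 579 ES cell reads in 5 of 45 cells, of which 1 cell held 79.3%. Nlrc5 had no read in either type.

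Genes of antigen presentation by MHC class I, which uses peptides cut by the proteasome, ran against the family. Of 9 measured, 8 passed 2-fold towards MEFs and none towards ES cells (H2-K1 stood at 0.25), beside 32.5% and 33.8% of all measured genes. The median was −1.55 (SD 0.65, above 0 in none of 8 rows). Among the 8, Tap1 and Erap1 had 1 ES cell read each and Tap2 none. With 10 CPM added these stood at −0.57, 0.18 and 0.15, within 2-fold. B2m, the light chain of class I, had 53.4 CPM in ES cells and 975 CPM in MEFs, a ratio of −2.65 (SD 1.12). Tapbp stood at −1.16 (SD 2.15), and the chaperones Calr and Pdia3, which also serve other glycoproteins, at −1.51 and −1.51 (SDs 0.74 and 0.91). In the interferon response list 6 of 12 genes were measured, of which 1 was higher in ES cells and 2 in MEFs, with a median of 0.01 (SD 1.89) that includes genes without an ES cell read at their bound. Its totals were low, 93 reads over all ES cells and 885 over all MEFs, and Isg15, Irf7, Mx1 and Usp18 had no read in either type. Stat2 stood at 1.87 (SD 2.54), Irf9 at 0.83 (SD 3.52) and Gbp2 at −0.26 (SD 1.65). Gbp3 was found in 1 MEF and no ES cell.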

How the data were processed

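The authors deposited raw read counts per gene row and well, which include reads with alternative mappings, per the file headers. The submitters' processing notes name Bowtie. Its version, the build and the annotation are not given in the sources used here. Transcript length, another deposited column of the authors, was used for the shares of paired subunits. Counts were pooled over cells (Python 3.11.15, pandas 2.3.3, numpy 2.4.6, scipy 1.17.1) into CPM, and log2 ratios took the median over 11054 genes with at least 100 reads as 0. A pooled sum of 0 took a floor of 3 reads, also within single plate rows. Some row values, and the SDs and row counts that use them, therefore hold such bounds. Spike-in rows (8) and repeat rows (1217) stayed out of the totals. Members and lists were chosen with earlier results of these data known. Members described by cell were the catalytic subunits with their immunoproteasome counterparts, the activators, Psmd4, Psmd14, and the 5 highest and 5 lowest by ratio with 10 CPM added, counting only members that had at least 100 reads and were detected in at least 25% of cells of the type with the higher level. Up to 4 genes of each other list with at least 20 reads followed by the same measure. Members outside that rule, such as Psma8 and Psmb1, and further genes of the lists were named with their values known. Some genes of the lists are not reported here. Coordinates came from GENCODE (43 of 43 symbols matched). Alternatives covered scaling, read minimums, thinning and leaving cells out.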

Additional observations from a re-analysis of the deposited data

How the results depend on the processing

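No paired analysis was possible because the groups share no replicate numbers and no test was made. Scaling changed most. On the CPM scale the family median was −0.48, with 1 member past 2-fold towards ES cells and 10 towards MEFs. Class medians stayed above 0 for the 20S core (0.24), alpha ring (0.67) and beta ring (0.22). They were below 0 for the 19S base and lid (−0.48), ATPases (−0.44), other base subunits (−0.30) and lid (−0.71). The activators (−0.68), assembly chaperones (−1.77) and the immunoproteasome and tissue-specific subunits (−0.60) were also below 0. On the spike-in scale the median was −5.05, with 1 and 41 members, and the medians were −4.33 (20S core), −3.90 (alpha ring), −4.34 (beta ring), −5.04 (19S base and lid), −5.00 (ATPases) and −4.87 (other base subunits). The median of all genes was −1.54 on the CPM, −0.26 on the median-of-ratios and −6.10 on the spike-in scale. With 10 CPM added the median was 0.35, with 9 members higher in ES cells. The 2 members higher in MEFs became 1 with the mean of per-cell CPM, in plate rows E to H, with the top cell left out or with at least 100 reads required, and 4 in rows A to D. Psmb8 stood at 0.50 with 10 CPM added and 1.66 without the top cells, the latter an upper bound set by the floor. The proteasome share was 0.483% in ES cells with ribosomal protein genes left out, and 1.61% in ES cells and 54.6% in MEFs as percent of spike-in reads. The other 53 alternatives of the family values stayed close to those reported (within the plate-row SD, or 1.5 times for counts). Leaving out ES cells 2, 4, 7, 8 and 30, or ES 47 and MEF 81, was chosen after seeing the data. With 1 culture per type, culture-to-culture variation is unknown, and at the depth of the shallowest ES cells (13576 gene reads) a member without a read could not be told from an absent one.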
